A study of Mus musculus with 9 samples.

Results

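The effect of R-spondin1 on mouse prostate basal organoids was read from 6 of the 9 RNA sequencing libraries of the series, the 3 titled R and the 3 titled BM. They were chosen by title and treatment label alone. All libraries came from basal cells of the prostate of C57BL/6J mice that had been isolated by flow sorting and grown as organoids, small epithelial structures in culture, for 5 days. Every group received the same basement medium, advanced DMEM/F12 with B27, N-acetylcysteine, EGF, Noggin (an antagonist of bone morphogenetic proteins), A83-01 (which blocks TGF-β receptor signalling) and Y-27632 (an inhibitor of the kinase ROCK). BM is this medium alone, and R is this medium with R-spondin1 at 500 ng/ml. The remaining 3 libraries, titled RD7, had R-spondin1 at 500 ng/ml and the androgen dihydrotestosterone (DHT) at 100 nM, and they enter here only through the estimate of the spread and as levels set side by side. No Wnt ligand is named among the components of the medium. The age of the mice, the number of animals and the origin of each library (its animal, sort or culture) are not given in the sources used here, so p-values measure the spread between libraries that may be technical replicates.

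R-spondins are secreted proteins that bind LGR receptors and the membrane ubiquitin ligases RNF43 and ZNRF3. This binding removes the ligases from the cell surface, so that Frizzled receptors accumulate and the response to Wnt ligands is stronger. In the nucleus, β-catenin then acts with TCF/LEF factors. The prostate epithelium has basal cells, marked by Krt5, Krt14 and Trp63, and luminal cells, marked by Krt8 and Krt18. The well-known Wnt targets and the genes of squamous (epidermis-like) differentiation served only as a reference here, and the text follows the rest of the transcriptome.

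With R-spondin1, the organoids carried more transcripts of the epithelial cytokines Il33 and Tslp, the water channel Aqp3, the retinol receptor Stra6, the surface antigen Psca and the secreted proteins Stc1 and Smoc2, and of factors such as Klf4, Grhl3 and Dlx5. They carried fewer transcripts of the YAP readouts Ccn2 and Ankrd1, the matrix genes Fn1, Nid1 and Tnc and the claudins Cldn2 and Cldn8. Also lower were the uroplakins Upk1a and Upk1b, the luminal markers Prom1 and Krt8 and the transcription factors Gata2, Osr1 and Pparg. The more abundant claudins Cldn4 and Cldn7 and the luminal keratin Krt18 were not called. Of 20 luminal identity markers tested, 6 were called lower, 2 higher (Psca among them) and 12 were not called. Over all genes tested, 5.62% were called lower and 4.36% higher. Of the luminal calls, 5 lower and 1 higher held without each of the 6 libraries in turn, and the median log2 fold change of the list was -0.03. Il33 rose from 60.5 ± 4.72 (BM) to 262 ± 17.5 FPKM (R), and Ccn2 fell from 158 ± 18.3 (BM) to 14.4 ± 0.880 FPKM (R).

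Between 6505859 reads (BM 1) and 24141017 reads (BM 2) had been counted per library. The values are FPKM (reads scaled to gene length and to all reads counted in the library), and log2 fold changes, given ± SE, are on the scale of log2(FPKM + 0.5), which understates changes of genes near or below that pseudocount. Group values are means ± SD of 3 libraries. One library stood apart from its group. On the first principal component of the 6 libraries, which held 61% of the variance, BM 1 and BM 2 lay at -42.9 and -42.8, BM 3 at -10.6 and the R libraries at 22.2 to 38.3. Across genes, the log2 difference between R and BM was correlated with gene length (Spearman rho -0.33 over 15931 genes, which are not independent replicates), as was the difference of BM 3 from the other BM libraries (rho -0.45). The part of BM 3 and of length in the results was not tested. Beside many lists some of these counts are given: without BM 3, with the length trend removed, or as a range over the 6 fits that each leave out 1 BM or R library. Settings that are not given beside a list may move its counts too.

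Of 15931 genes tested with limma, 694 were higher and 896 were lower in R at a Benjamini-Hochberg adjusted p under 0.05, which is 4.36% and 5.62% of the genes tested, or 9.98% in either direction. At least 2-fold changes were called for 266 genes higher and 423 lower, and at least 4-fold changes for 66 higher and 79 lower. The median log2 fold change of all genes tested was 0.02. The calls depended on single libraries. Without BM 3, 2083 genes were called higher and 1310 lower, and 61.4% of the calls were then on the higher side, against 43.6% with all libraries. Calls that held without each of the 6 libraries in turn numbered 327 higher (2.05% of the genes tested) and 498 lower (3.13%). All 3 libraries of R lay on the same side of all 3 of BM for 30.2% of the genes tested. The same held for 99.856% of the genes called higher, 100% of those called lower and each of the 177 called genes picked for naming. For genes picked by fold change or by difference in FPKM, it was a condition of the choice.

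**Figure D1:**
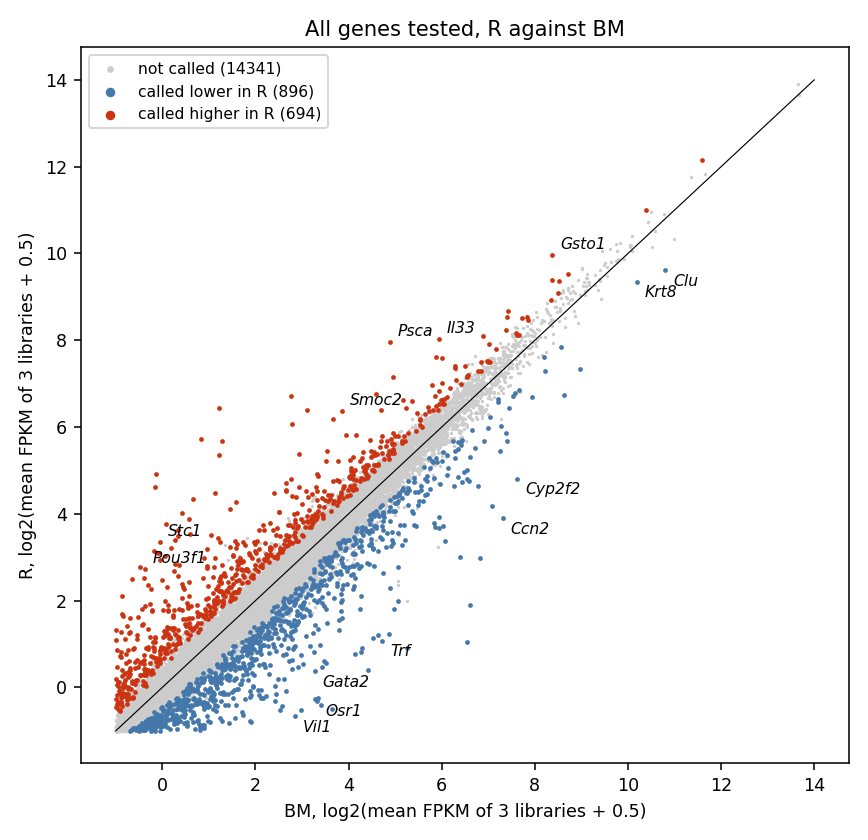
Mean level of each of the 15931 genes tested in BM (horizontal axis) and in R (vertical axis), both as log2(mean FPKM of 3 libraries + 0.5), with the 694 genes called higher and the 896 called lower in colour and the line of equal levels drawn. Osr1, Vil1 and Gata2 lie well below the line with mean levels under 1 FPKM in R, and Ccn2 lies below it at 14.4 FPKM in R.

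**Figure D2:**
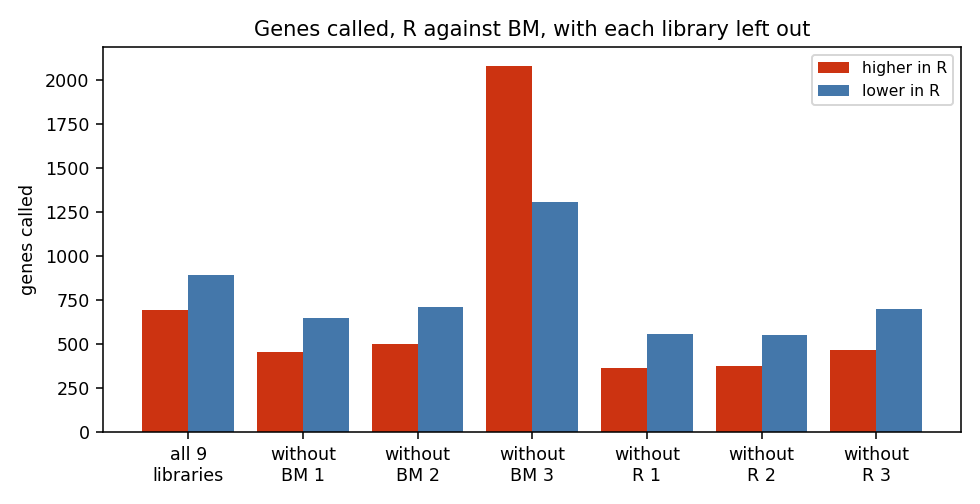
Number of genes called higher and lower in R with all 9 libraries and with each BM or R library left out of the fit. The counts lie between 368 and 2083 (higher) and between 555 and 1310 (lower), and leaving out BM 3 is the only case with more genes higher than lower.

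The response of reference genes was read first. Wif1, a secreted Wnt antagonist, stood at 5.76, 5.97 and 7.00 FPKM in BM 1 to 3 and 103, 112 and 98.3 in R 1 to 3 (log2 fold change 3.96 ± 0.13, adjusted p = 2.3e-07). Axin2, a feedback inhibitor of β-catenin, stood at 0.391, 0.346 and 0.315 FPKM in BM 1 to 3 and 3.88, 3.36 and 5.59 in R 1 to 3 (log2 fold change 2.46 ± 0.19, adjusted p = 1.8e-05). All R libraries were above all BM libraries for both, so the labels of the libraries and the level of these targets went together. Of the 28 Wnt targets tested, 10 were called higher and 2 lower, and of the 56 squamous genes, 43 were called higher and 0 lower. Krt10, a keratin of differentiating squamous cells, rose from 1.93 ± 0.480 (BM) to 50.4 ± 4.13 FPKM (R).

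Basal markers were abundant in all 6 libraries. The summed level of 9 basal markers was 7375 to 8259 FPKM in BM and 9968 to 10512 FPKM in R. The keratins Krt5, Krt14 and Krt15 made up most of this sum, with Krt15 at 2882 to 3212 FPKM in BM and 4311 to 4702 FPKM in R. The less abundant Itgb4 (97.1 to 149 FPKM in BM, 64.4 to 104 in R), Col17a1 and Itga6 leaned lower in R, with overlapping groups. That of 10 luminal markers, mostly Krt8, Krt18 and Krt19, summed to 3256 to 4242 FPKM in BM and 2493 to 2959 FPKM in R. Over a longer list of 20 luminal markers the groups overlapped, at 4814 to 6352 FPKM in BM and 4563 to 5327 FPKM in R. Krt5 stood at 2945, 2363 and 2494 FPKM in BM 1 to 3 and 3510.3, 3417 and 3525 in R 1 to 3 and missed the threshold (log2 fold change 0.43 ± 0.12, adjusted p = 0.055), although it passed without BM 1 (adjusted p = 0.036) or BM 3 (adjusted p = 0.047). Krt14 (log2 fold change 0.13 ± 0.13, adjusted p = 0.52), Trp63 (log2 fold change 0.13 ± 0.22, adjusted p = 0.73) and the luminal keratin Krt18 (log2 fold change -0.04 ± 0.17, adjusted p = 0.92) were not called. The luminal keratin Krt8 fell from 1173 ± 99.5 (BM) to 652 ± 41.6 FPKM (R) (log2 fold change -0.85 ± 0.14, adjusted p = 0.0027). In bulk libraries, fewer cells of a type and less RNA of that type per cell cannot be told apart.

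Markers of other cell types were low. Sums of 5 endothelial and 5 neuroendocrine markers stayed at or below 0.555 and 0.814 FPKM in every library, and those of 5 seminal vesicle markers at or below 0.269 FPKM. Longer lists of 8 genes summed higher. The 8 neuroendocrine genes summed to 3.89 to 5.01 FPKM in BM and 5.44 to 7.40 FPKM in R, with no overlap, and the 8 endothelial genes to 0.920 to 1.14 FPKM and 0.778 to 1.15 FPKM. The 10 mesenchymal markers summed to 14.8 to 23.1 FPKM in BM and 22.99 to 29.2 FPKM in R. Within that list the proteoglycan gene Dcn rose from 4.79 ± 1.27 (BM) to 21.9 ± 2.71 FPKM (R), while the smooth muscle actin Acta2 fell from 12.4 ± 3.43 (BM) to 3.69 ± 0.984 FPKM (R). The 8 immune markers summed to 4.32 to 4.44 FPKM in BM and 5.47 to 6.69 FPKM in R, with Tyrobp at 0 in all 6 libraries. Lyz2, a lysozyme of phagocytes, was listed at 0 in all BM libraries and at 0.643 to 0.656 FPKM in R, and Cd68 rose from 1.21 ± 0.364 (BM) to 2.64 ± 0.434 FPKM (R), a call lost without BM 1, BM 2, R 1, R 2 or R 3 (adjusted p up to 0.13). The part of other cell types in the results was not tested.

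Protein-coding genes outside the reference lists were next picked if they reached 2 FPKM, had groups without overlap and kept their call without each library. The 12 of these with the highest fold change were Nccrp1, Stc1, C2cd4b, Crnn, Ly6g6c, Psca, Pou3f1, S100a7a, Plbd1, Pglyrp4, Tmem45a and Ndufa4l2. Several of them are themselves known from squamous epithelia, among them Crnn, S100a7a, Pou3f1 and Tmem45a, although they were on neither reference list. Stc1 (chr14:69029238-69041804), which encodes the secreted glycoprotein stanniocalcin 1, stood at 0.616, 0.487 and 0.286 FPKM in BM 1 to 3 and 9.16, 9.73 and 10.2 in R 1 to 3 (log2 fold change 3.42 ± 0.19, adjusted p = 2.3e-06). Psca (chr15:74714839-74717069), the prostate stem cell antigen of the Ly6 family of membrane-anchored proteins, stood at 21.4, 23.5 and 42.6 FPKM in BM 1 to 3 and 305, 237 and 207 in R 1 to 3 (log2 fold change 3.12 ± 0.29, adjusted p = 6.8e-05). For both genes the groups were far apart, and for Psca the BM library closest to R was BM 3. Another Ly6 family member, Ly6g6c, stood at 0.337, 0.545 and 1.42 FPKM in BM 1 to 3 and 13.6, 10.9 and 7.84 in R 1 to 3 (log2 fold change 3.21 ± 0.30, adjusted p = 6.9e-05), again with BM 3 as the highest BM library.

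Pou3f1, a POU-domain transcription factor, stood at 0.200, 0.215 and 0.411 FPKM in BM 1 to 3 and 6.10, 6.86 and 5.43 in R 1 to 3 (log2 fold change 3.10 ± 0.20, adjusted p = 6.4e-06). Crnn, encoding the S100-fused protein cornulin, stood at 4.45, 7.66 and 6.95 FPKM in BM 1 to 3 and 67.1, 72.3 and 60.5 in R 1 to 3 (log2 fold change 3.32 ± 0.21, adjusted p = 6.4e-06). S100a7a, an S100 protein of inflamed skin with close paralogs, stood at 0.223, 0.812 and 0.852 FPKM in BM 1 to 3 and 9.78, 9.68 and 6.91 in R 1 to 3 (log2 fold change 3.08 ± 0.29, adjusted p = 8.4e-05). BM 1 was the lowest library for each of these 3 genes. Pglyrp4, a peptidoglycan recognition protein, rose from 1.00 ± 0.224 (BM) to 11.2 ± 0.797 FPKM (R), and Plbd1, a phospholipase B-like gene, rose from at most 0.0944 FPKM in BM to between 3.53 and 4.26 FPKM in R. Ndufa4l2, a relative of a mitochondrial respiratory chain subunit that is induced in hypoxia, stood at 4.003, 5.39 and 12.1 FPKM in BM 1 to 3 and 50.1, 39.6 and 34.4 in R 1 to 3 (log2 fold change 2.57 ± 0.33, adjusted p = 0.00067). Nccrp1, an F-box-associated protein, rose from 0.845 ± 0.233 (BM) to 15.7 ± 1.66 FPKM (R), and Tmem45a rose from 2.51 ± 0.742 (BM) to 18.7 ± 2.37 FPKM (R). C2cd4b rose from 0.387 ± 0.135 (BM) to 8.38 ± 1.29 FPKM (R), and 47.2% of its exonic length is shared with another annotated gene, whose reads the unstranded library kit cannot set apart. Among other genes named here, Hopx, Ccn2, Tgm2, Spp1, Atp1b1, Muc20, B4galnt2, Angpt1, Efna3, Cyp2f2, Slc45a3 and Pla2g7 share between 11% and 27.2% of their exonic length with another annotated gene, so their values may include its reads.

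**Figure D3:**
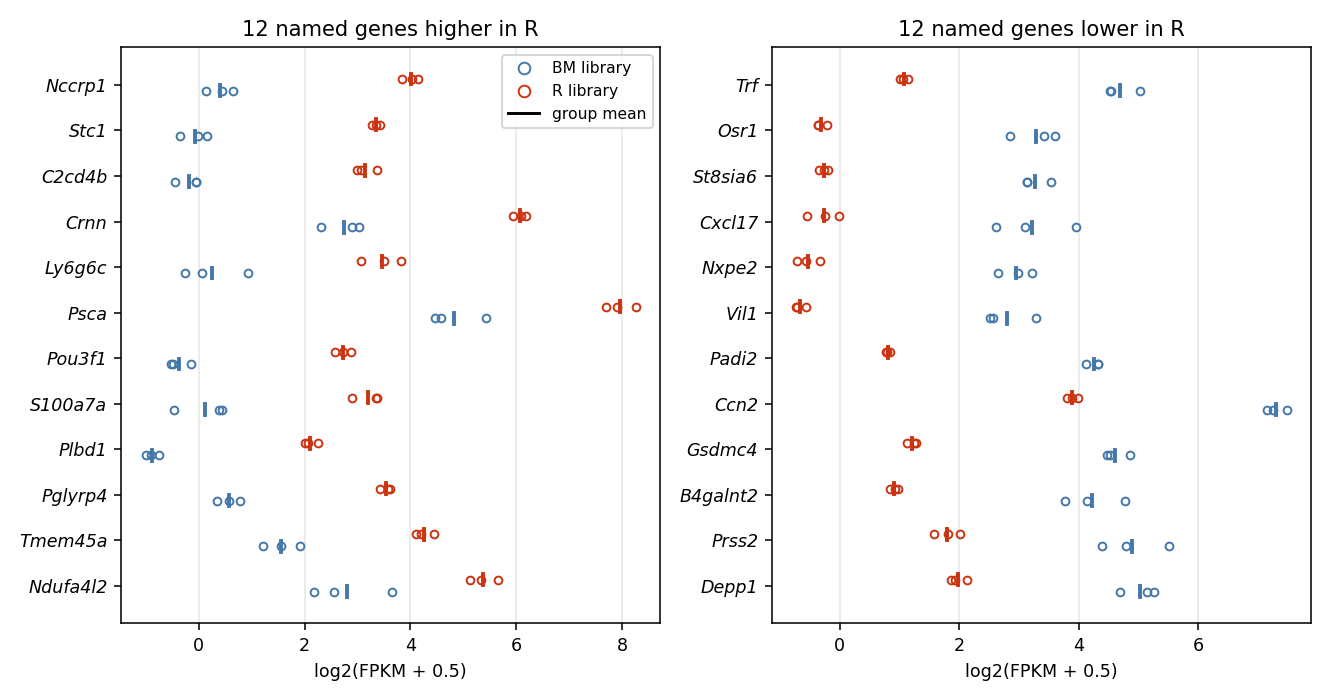
Level, in each BM and R library, of the 12 named genes that rose most and the 12 that fell most by log2 fold change, on the scale of log2(FPKM + 0.5), with group means as vertical bars. No gene has overlapping groups, which was a condition for being picked.

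Under the same conditions, the 12 genes with the lowest fold change were Trf, Osr1, St8sia6, Cxcl17, Nxpe2, Vil1, Padi2, Ccn2, Gsdmc4, B4galnt2, Prss2 and Depp1. Ccn2 (chr10:24595442-24598683), a secreted matricellular protein and a standard readout of the YAP coactivator, stood at 178, 143 and 153 FPKM in BM 1 to 3 and 15.3, 13.6 and 14.3 in R 1 to 3 (log2 fold change -3.41 ± 0.13, adjusted p = 3.3e-07). Vil1, encoding the microvillus protein villin, stood at 9.31, 5.21 and 5.44 FPKM in BM 1 to 3 and 0.176, 0.109 and 0.104 in R 1 to 3 (log2 fold change -3.46 ± 0.24, adjusted p = 1.1e-05). Osr1 (chr12:9570116-9581500), a zinc finger transcription factor of the developing urogenital tract, stood at 11.7, 6.68 and 10.3 FPKM in BM 1 to 3 and 0.281, 0.364 and 0.276 in R 1 to 3 (log2 fold change -3.60 ± 0.20, adjusted p = 2.3e-06). The groups of these genes were far apart, and in R only Ccn2 stayed above 1 FPKM.

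Trf, encoding the iron carrier transferrin, stood at 32.2, 22.5 and 22.9 FPKM in BM 1 to 3 and 1.51, 1.71 and 1.59 in R 1 to 3 (log2 fold change -3.63 ± 0.16, adjusted p = 5.2e-07), with 63.5% of its exonic length shared with an overlapping annotated gene. Padi2, a peptidylarginine deiminase that converts arginine residues to citrulline, stood at 19.6, 16.9 and 19.4 FPKM in BM 1 to 3 and 1.24, 1.30 and 1.21 in R 1 to 3 (log2 fold change -3.45 ± 0.14, adjusted p = 4.8e-07). Cxcl17, a chemokine of mucosal surfaces, stood at 8.08, 5.61 and 15.1 FPKM in BM 1 to 3 and 0.494, 0.339 and 0.182 in R 1 to 3 (log2 fold change -3.50 ± 0.32, adjusted p = 6.6e-05). BM 3 was the BM library farthest from R for Cxcl17, whereas it was the nearest for Psca. Gsdmc4, a pore-forming gasdermin with close paralogs beside it, fell from 24.2 ± 3.75 (BM) to 1.83 ± 0.122 FPKM (R). Prss2, a trypsinogen of a multigene family, fell from 30.9 ± 12.6 (BM) to 3.01 ± 0.522 FPKM (R), and Depp1, a gene that responds to FOXO factors, fell from 32.7 ± 6.62 (BM) to 3.45 ± 0.399 FPKM (R). Nxpe2, of the neurexophilin and PC-esterase family, fell from 7.34 ± 1.52 (BM) to 0.193 ± 0.0937 FPKM (R).

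Some of the genes that fell encode enzymes of glycan synthesis, for which no list was made. St8sia6, a sialyltransferase, fell from 9.24 ± 1.57 (BM) to 0.329 ± 0.0421 FPKM (R) (log2 fold change -3.54 ± 0.17, adjusted p = 7.7e-07), and B4galnt2, which makes the Sda blood group glycan, fell from 19.1 ± 7.14 (BM) to 1.38 ± 0.0791 FPKM (R) (log2 fold change -3.32 ± 0.23, adjusted p = 9.3e-06). Further enzymes were picked after their values were seen, so their direction supports nothing about glycan synthesis genes as a group. Gne, the first enzyme of sialic acid synthesis, fell from 22.97 ± 5.05 (BM) to 6.47 ± 0.209 FPKM (R). Mgat3, Gcnt1 and Fut2, which add branching N-acetylglucosamine or fucose to glycans, had log2 fold changes of -1.84, -1.55 and -1.55 (limma adjusted p between 0.001 and 0.0013). In each of these enzymes every R library was below every BM library.

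Genes were also picked, under the same conditions, by their difference in FPKM, and these were abundant genes. Gsto1, a glutathione transferase of the omega class, stood at 250.3, 287 and 456 FPKM in BM 1 to 3 and 1127, 1032 and 848 in R 1 to 3 (log2 fold change 1.64 ± 0.22, adjusted p = 0.00098). Il33, an alarmin cytokine that epithelial cells store in the nucleus, stood at 55.1, 63.8 and 62.6 FPKM in BM 1 to 3 and 252, 282 and 252 in R 1 to 3 (log2 fold change 2.11 ± 0.12, adjusted p = 2.5e-06). Tslp, an epithelial cytokine that acts on dendritic cells, stood at 47.5, 60.2 and 84.6 FPKM in BM 1 to 3 and 209.7, 193 and 174 in R 1 to 3 (log2 fold change 1.62 ± 0.26, adjusted p = 0.0026). The groups did not overlap, and BM 3 was the highest BM library for Gsto1 and Tslp but not for Il33. Gja1, encoding the gap junction protein connexin 43, rose from 117 ± 20.2 (BM) to 271 ± 8.32 FPKM (R) (log2 fold change 1.22 ± 0.15, adjusted p = 0.00054). Shmt2, the mitochondrial serine hydroxymethyltransferase of one-carbon metabolism, rose from 167 ± 5.72 (BM) to 302 ± 15.5 FPKM (R), and Atp1b3, a β subunit of the sodium pump, rose from 227 ± 28.0 (BM) to 368 ± 19.0 FPKM (R).

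On the other side, Clu, encoding the extracellular chaperone clusterin, stood at 1988, 1494 and 1879.8 FPKM in BM 1 to 3 and 796, 828 and 733 in R 1 to 3 (log2 fold change -1.18 ± 0.16, adjusted p = 0.00093). Cyp2f2, a cytochrome P450 of airway club cells, stood at 239, 159 and 192 FPKM in BM 1 to 3 and 25.9, 30.7 and 25.7 in R 1 to 3 (log2 fold change -2.80 ± 0.16, adjusted p = 3.3e-06). Thbs1, encoding the matricellular protein thrombospondin 1, stood at 171, 223 and 112 FPKM in BM 1 to 3 and 46.5, 42.1 and 63.4 in R 1 to 3 (log2 fold change -1.69 ± 0.31, adjusted p = 0.0056). The fall in Cyp2f2 was the steepest of these 3 on the log2 scale and that of Clu the largest in FPKM. Slc39a4, a zinc importer, fell from 246 ± 15.0 (BM) to 102 ± 6.26 FPKM (R), and Mfge8, a secreted bridge to phagocytes, fell from 298 ± 42.2 (BM) to 157 ± 8.05 FPKM (R). Tgm2, the tissue transglutaminase, fell from 167 ± 45.6 (BM) to 57.4 ± 4.69 FPKM (R), while the squamous transglutaminases Tgm1, Tgm3 and Tgm5 were among the reference genes called higher.

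**Figure D4:**
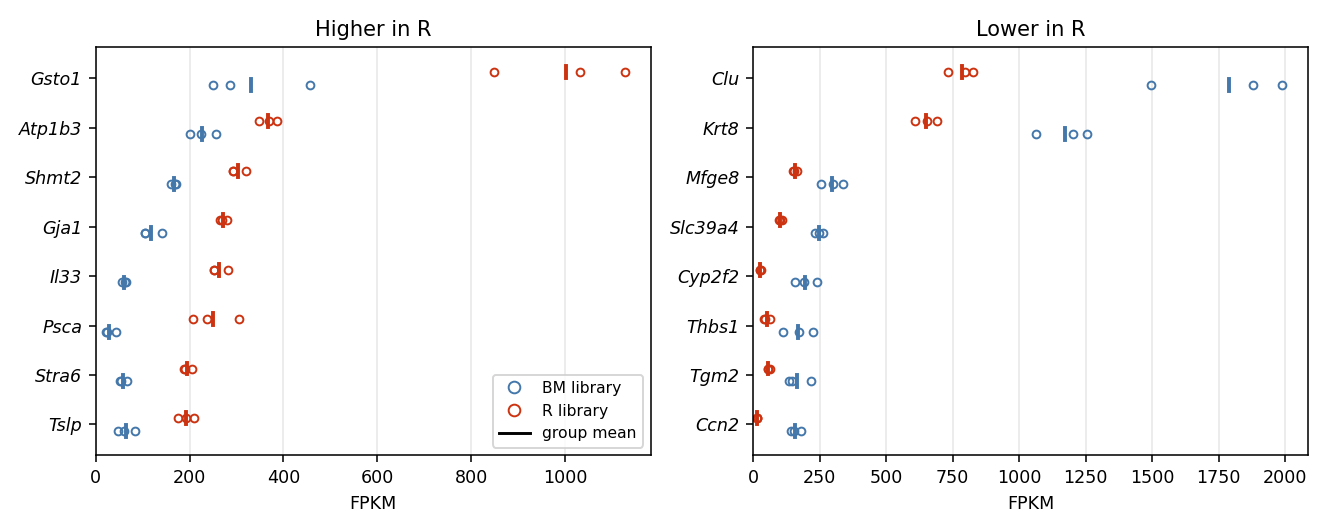
FPKM in each BM and R library of the 8 genes with the largest rise and the 8 with the largest fall in mean FPKM among protein-coding genes outside the reference lists whose call held without each library, with group means as vertical bars, on linear axes that start at 0. Genes that did not meet that condition, such as Krt5, Krt14, Ier3 and Ly6a, are left out. Of those plotted, Gsto1 and Clu have the widest gaps between group means in FPKM. Groups that do not overlap were a condition for being plotted.

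Gene lists were then read by their calls, beside the 4.36% higher and 5.62% lower of all genes tested. A list's share above these values describes its members and was not tested as a set. The plot of calls within lists shows that most lists held calls in both directions. Outside the reference lists, 5 (YAP and actin, FGF and Hedgehog, junctions, gasdermins and cell death, MHC class I) had calls only on the lower side with all libraries. For MHC class I this was 1 of 27 genes (3.70%), below the 5.62% lower of all genes tested, with a median log2 fold change of 0.14.

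**Figure D5:**
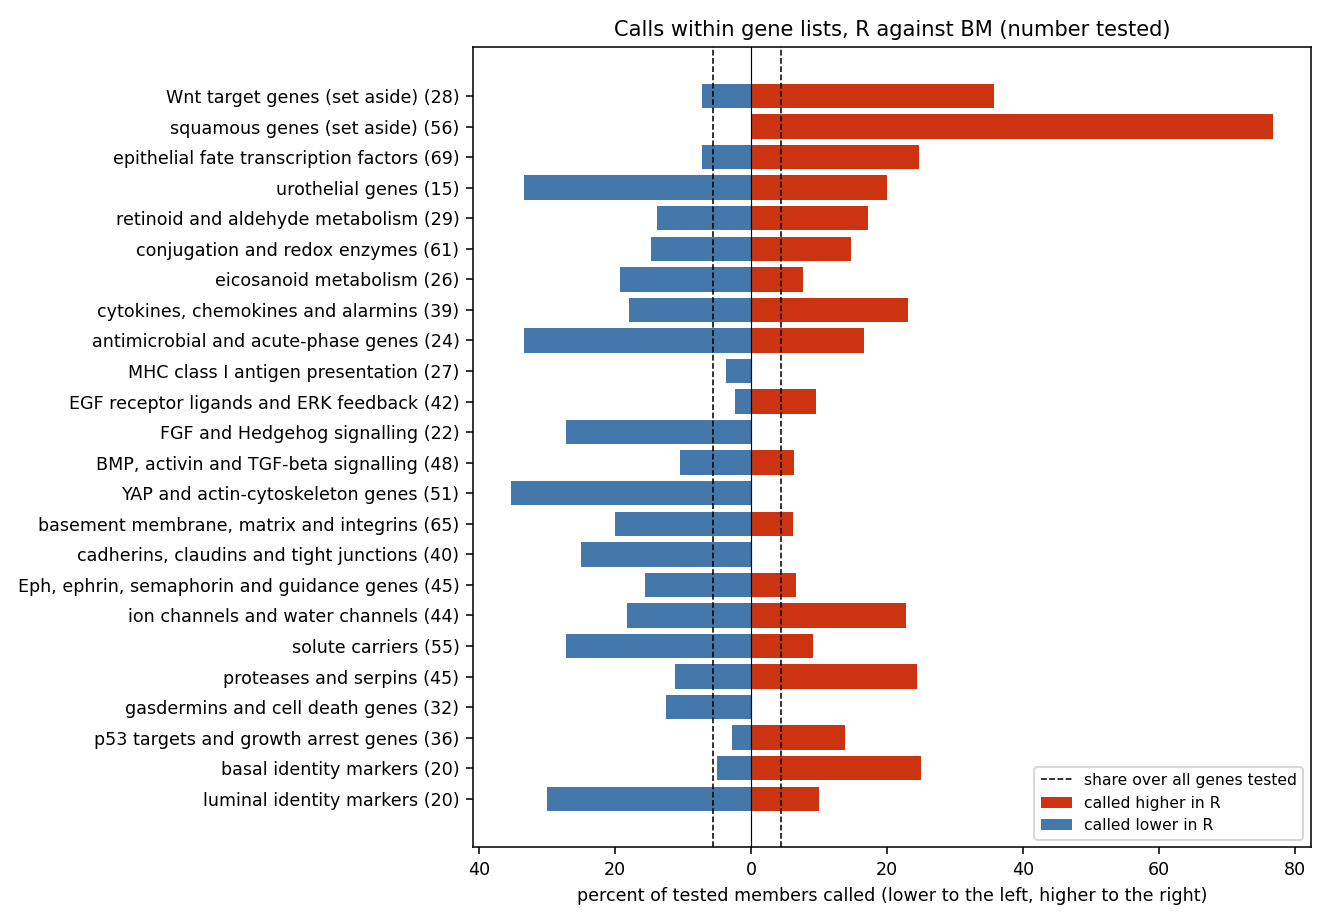
Percent of the tested members of each gene list called higher (right) and lower (left) in R, with the number tested in parentheses and the shares over all 15931 genes as dashed lines (4.36% higher and 5.62% lower). Of the lists plotted, leaving aside the reference lists, YAP and actin genes have the largest share lower, 18 of 51, and basal identity markers the largest share higher, 5 of 20. Other lists come close, with 8 of 24 antimicrobial genes lower and 17 of 69 fate factors and 11 of 45 proteases and serpins higher. Neither ranking held with the length trend removed (lower, 19 of 51 YAP and actin and 10 of 24 antimicrobial genes, and higher, 3 of 20 basal markers and 15 of 69 fate factors).

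Among transcription factors of epithelial fate, 17 of 69 were called higher and 5 lower (median log2 fold change 0.13). With single libraries left out, 12 to 18 were higher and 5 to 10 lower, the upper ends being those without BM 3. Removing the length trend gave 15 higher and 7 lower. Calls that held without each library numbered 11 and 5. Dlx5, a homeobox factor of the distal-less family, rose from 0.112 ± 0.0229 (BM) to 1.902 ± 0.178 FPKM (R) (log2 fold change 1.97 ± 0.11, adjusted p = 1.9e-06). Sox21, an SRY-box factor, stood at 5.95, 5.74 and 5.71 FPKM in BM 1 to 3 and 21.9, 22.4 and 23.98 in R 1 to 3 (log2 fold change 1.88 ± 0.16, adjusted p = 3.0e-05), with 18.8% of its exonic length shared with another gene. The libraries of each group lay within a narrow range for both genes. Klf4, a factor of barrier epithelia, rose from 5.21 ± 0.626 (BM) to 16.1 ± 0.322 FPKM (R), Grhl3, a grainyhead-like factor, rose from 8.27 ± 0.782 (BM) to 20.3 ± 1.49 FPKM (R), and Elf5, an ETS factor, rose from 0.565 ± 0.247 (BM) to 2.12 ± 0.290 FPKM (R). Hopx, a homeodomain-only protein that does not bind DNA, rose from 7.19 ± 3.30 (BM) to 24.05 ± 3.45 FPKM (R). Others called higher were Tbx2, Sox15, Tfap2c, Ovol1, Irx2, Irx3, Prdm1, Foxi1, Bcl11a, Snai2 and Dlx3.

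Gata2, a zinc finger factor that works with the androgen receptor in prostate cells, had the largest absolute fold change of this list on the log2(FPKM + 0.5) scale, although by group means Dlx5 changed more (17.0-fold, against 11.7-fold for Gata2). It stood at 9.43, 10.2 and 7.93 FPKM in BM 1 to 3 and 0.882, 0.637 and 0.847 in R 1 to 3 (log2 fold change -2.91 ± 0.16, adjusted p = 2.5e-06), so that every R library was below 1 FPKM. The nuclear receptors Pparg, a regulator of lipid genes and urothelial fate, and Nr2f2 also fell. Pparg stood at 15.2 ± 1.41 (BM) and 5.92 ± 0.307 FPKM (R) (log2 fold change -1.29 ± 0.14, adjusted p = 0.00025). Nr2f2 stood at 4.27 ± 0.526 (BM) and 2.16 ± 0.107 FPKM (R). Spdef, an ETS factor of secretory epithelia, fell from 5.59 ± 1.29 (BM) to 1.95 ± 0.438 FPKM (R). Outside the lists, and named after their values were seen, Tfcp2l1, a grainyhead-family factor of kidney and salivary ducts, fell from 5.64 ± 2.36 (BM) to 0.652 ± 0.203 FPKM (R) and Tcf7l1, a TCF factor that mostly represses, fell from 4.79 ± 0.512 (BM) to 2.24 ± 0.295 FPKM (R). Its relative Tcf7l2 stood at 6.74 ± 1.42 (BM) and 4.85 ± 1.12 FPKM (R) and was not called (adjusted p = 0.2).

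Of 15 urothelial genes, 3 were called higher and 5 lower (median log2 fold change -0.37). With the length trend removed, 3 were higher and 6 lower. The uroplakin genes Upk1a and Upk1b, which encode tetraspanins of the bladder surface plaque, stood apart from the keratin Krt20 of the same list. Upk1a stood at 73.7, 50.3 and 77.5 FPKM in BM 1 to 3 and 9.35, 11.3 and 8.97 in R 1 to 3 (log2 fold change -2.69 ± 0.18, adjusted p = 7.7e-06). Upk1b stood at 125, 87.6 and 115 FPKM in BM 1 to 3 and 24.7, 26.9 and 22.3 in R 1 to 3 (log2 fold change -2.11 ± 0.15, adjusted p = 1.3e-05). Krt20, a keratin of superficial bladder cells and intestine, rose from 0.756 ± 0.0559 (BM) to 5.39 ± 0.703 FPKM (R) (log2 fold change 2.22 ± 0.18, adjusted p = 2.3e-05). The list thus moved in both directions, with its plaque genes lower and Krt20 and Psca higher. The simple-epithelial keratin Krt7 stood at 146 ± 17.2 (BM) and 99.4 ± 8.49 FPKM (R) (log2 fold change -0.55 ± 0.15, adjusted p = 0.046), a call that was lost without BM 1, BM 2, BM 3, R 1, R 2 or R 3 (adjusted p up to 0.14).

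Among 20 luminal identity markers, 6 were called lower and 2 higher, and among 20 basal markers, 5 were called higher and 1 lower. The luminal markers called higher were Psca, given above and with the largest absolute log2 fold change of the list, and Ly6a, whose call was not kept without each library. For basal markers, leaving out single libraries gave 2 to 6 higher and 1 to 3 lower, and 2 of the 5 held without each. With the length trend removed, 3 basal markers were higher and 1 lower. Prom1, encoding the apical membrane protein prominin 1, stood at 67.4, 61.8 and 54.4 FPKM in BM 1 to 3 and 11, 12.8 and 13.2 in R 1 to 3 (log2 fold change -2.27 ± 0.17, adjusted p = 1.5e-05). Cd38, an enzyme that consumes NAD, stood at 4.27, 4.54 and 4.33 FPKM in BM 1 to 3 and 0.709, 0.763 and 0.748 in R 1 to 3 (log2 fold change -1.98 ± 0.15, adjusted p = 1.3e-05). Both are used to mark luminal cells, and every R library was below every BM library. Without BM 3, 7 luminal markers were lower and 2 higher, and the median log2 fold change of the luminal list was 0.08 rather than -0.03. With the length trend removed, 8 luminal markers were lower and 2 higher. Among basal markers, Dlk2 rose from 4.55 ± 0.719 (BM) to 8.82 ± 0.0735 FPKM (R) and the transcription factor Snai2 rose from 56.0 ± 9.33 (BM) to 83.1 ± 9.42 FPKM (R), the latter call being lost without BM 1, BM 2, R 1 or R 2 (adjusted p up to 0.17). Igfbp3, which binds insulin-like growth factors, fell from 31.2 ± 3.36 (BM) to 16.4 ± 1.10 FPKM (R), and its relative Igfbp5, named after its value was seen, fell from 6.39 ± 1.30 (BM) to 1.04 ± 0.394 FPKM (R).

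YAP and its relative TAZ are coactivators that respond to tension of the actin cytoskeleton and act through TEAD factors, and ROCK, which the medium of all groups inhibits, promotes actomyosin tension. Of 51 genes of YAP and the actin cytoskeleton, 18 were called lower and 0 higher (median log2 fold change -0.40), against 5.62% lower over all genes tested. Removing the length trend left 19 lower and 0 higher. Without BM 3 there were 20 lower and 3 higher, and without each of the 6 libraries in turn 11 to 20 were lower. The tested members had a median length of 4743 bases, against 3580 for all genes tested. Ankrd1, an ankyrin repeat protein and, like Ccn2, a YAP readout, stood at 4.44, 5.59 and 5.14 FPKM in BM 1 to 3 and 0.852, 0.414 and 0.654 in R 1 to 3 (log2 fold change -2.30 ± 0.20, adjusted p = 5.1e-05). Myh14, a non-muscle myosin heavy chain, stood at 9.83, 7.81 and 6.41 FPKM in BM 1 to 3 and 1.66, 1.21 and 2.41 in R 1 to 3 (log2 fold change -1.93 ± 0.34, adjusted p = 0.0049). Every R library of both was below every BM library.

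The promoter window of Ankrd1 is shown as an example from a YAP readout that fell, with 2 matches to the core letters of the TEAD motif. Windows of S100a7a, Krt20, Cpa4 and Pdgfc, genes that rose, also held more than 1 match. The Ankrd1 window runs from 250 bases before to 50 bases after a start given in RefSeq on GRCm38.p6, at chr19:36119795-36120094 on the minus strand. That start lies inside the gene as annotated in GENCODE M21 (chr19:36111961-36120099), not at its 5′ end. The window is printed 5′ to 3′ with each match to GGAATG in capitals, starting 210 and 123 bases before the RefSeq start.
Ankrd1: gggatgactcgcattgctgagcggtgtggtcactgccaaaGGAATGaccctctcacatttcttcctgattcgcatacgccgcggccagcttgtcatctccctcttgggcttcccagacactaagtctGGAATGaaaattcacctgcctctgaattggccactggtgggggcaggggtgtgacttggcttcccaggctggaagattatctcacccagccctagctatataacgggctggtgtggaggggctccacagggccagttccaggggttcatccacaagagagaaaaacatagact
Matches were counted by gene, in any of its windows, since a gene can have more than 1. GGAATG or its reverse complement CATTCC was present in 17 of 43 tested YAP and actin genes with a window (39.5%), in 6 of 15 of those called lower and in 1598 of 11001 of all genes tested (14.5%). Among all genes with a window, it was present in 110 of 597 called lower (18.4%) and in 68 of 484 called higher (14.1%). A match describes the letters only, and this motif and window were chosen after the values were seen.

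Contractile and cytoskeletal genes were among those that fell, at low levels. Acta2 stood at 9.67, 11.3 and 16.3 FPKM in BM 1 to 3 and 4.82, 3.21 and 3.03 in R 1 to 3 (log2 fold change -1.62 ± 0.23, adjusted p = 0.0014). Myl9, a myosin light chain, stood at 2.91, 4.24 and 7.02 FPKM in BM 1 to 3 and 1.29, 1.37 and 1.83 in R 1 to 3 (log2 fold change -1.32 ± 0.27, adjusted p = 0.01). The intermediate filament gene Vim fell from 1.37 ± 0.139 (BM) to 0.236 ± 0.0554 FPKM (R). For Acta2 and Myl9 the highest BM library was BM 3, so its place was not towards R. The call of Tagln, an actin-binding protein with 67.9% of its exonic length shared with another gene, was lost without BM 1, BM 2, R 1 or R 2 (adjusted p up to 0.14). Other members called lower were Arhgap29, Fstl1, Wwc1, Nes, Acta1, Lats2, Axl, Flnc and Krt8, of which Nes and Krt8, like Vim, encode intermediate filament proteins and not actin regulators. Cspg4, a proteoglycan of pericytes, stood at 0.387 ± 0.116 (BM) and 0.0838 ± 0.0239 FPKM (R), a call lost without BM 1, R 1 or R 2 (adjusted p up to 0.077), and Rgs5, another pericyte gene, at 0.771 ± 0.0299 (BM) and 1.52 ± 0.165 FPKM (R), so that these mesenchymal list members moved in opposite directions.

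Of 65 genes of basement membrane, matrix and integrins, 13 were called lower and 4 higher (median log2 fold change -0.36). Fn1, encoding fibronectin, stood at 8.47, 16.4 and 7.71 FPKM in BM 1 to 3 and 0.890, 0.839 and 1.23 in R 1 to 3 (log2 fold change -2.87 ± 0.27, adjusted p = 7.9e-05). Nid1, encoding the basement membrane linker nidogen 1, stood at 9.71, 10.6 and 7.09 FPKM in BM 1 to 3 and 1.10, 1.23 and 1.45 in R 1 to 3 (log2 fold change -2.44 ± 0.18, adjusted p = 1.3e-05). Tnc, encoding tenascin C, stood at 14.02, 29.3 and 11.9 FPKM in BM 1 to 3 and 2.80, 2.46 and 3.73 in R 1 to 3 (log2 fold change -2.34 ± 0.30, adjusted p = 0.00067). BM 2 was the highest library for all 3 of these genes, and the R libraries were all lower than the lowest BM library. Spp1, encoding osteopontin, fell from 57.7 ± 13.5 (BM) to 12.5 ± 0.606 FPKM (R), and the metalloprotease inhibitor Timp2 fell from 93.0 ± 11.4 (BM) to 27.3 ± 0.617 FPKM (R). Fbln1, encoding the matrix protein fibulin 1, rose from 6.55 ± 0.859 (BM) to 15.5 ± 0.892 FPKM (R). Of the matrix-cleaving enzymes, Mmp9 rose from 1.19 ± 0.141 (BM) to 2.85 ± 0.401 FPKM (R) and Mmp3 rose from 10.3 ± 2.42 (BM) to 20.2 ± 1.61 FPKM (R), the second call being lost without BM 1, BM 2, R 1, R 2 or R 3 (adjusted p up to 0.12), and Mmp10 was the other member called higher. These genes are long, with a median of 6619 bases. With the length trend removed 15 were lower and 5 higher, and without BM 3, 22 were lower and 5 higher. Over the left-out libraries the lower count ran from 9 to 22.

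Of 40 cadherins, claudins and tight junction genes, 10 were called lower and 0 higher (median log2 fold change -0.37), and 12 were lower with the length trend removed. The count of lower members was 15 without BM 3 and 6 without BM 1 or any 1 R library, and 5 of the 10 held without each library. Cldn2, which forms a paracellular pore for cations, stood at 3.14, 3.19 and 3.36 FPKM in BM 1 to 3 and 0.0942, 0.0388 and 0.0972 in R 1 to 3 (log2 fold change -2.69 ± 0.11, adjusted p = 4.8e-07). Cldn8 stood at 13.5, 15.5 and 13.4 FPKM in BM 1 to 3 and 4.68, 5.46 and 3.78 in R 1 to 3 (log2 fold change -1.52 ± 0.23, adjusted p = 0.0018). For both genes BM libraries were close to each other and R libraries lower. Cgnl1, encoding the junction plaque protein paracingulin, fell from 3.84 ± 0.954 (BM) to 1.44 ± 0.134 FPKM (R), and Cldn10 stood at 3.11 ± 1.52 (BM) and 0.943 ± 0.296 FPKM (R), a call lost without R 3 (adjusted p = 0.053). The other members called lower were Cdh17, Cgn, Cldn3, Fat1, Cdh16 and Ocln. The main epithelial cadherin Cdh1 stood at 179, 298 and 138 FPKM in BM 1 to 3 and 99.3, 103 and 131 in R 1 to 3 and was not called (log2 fold change -0.82 ± 0.31, adjusted p = 0.14), with BM 2 far above the other BM libraries. Without BM 3 it was called lower (log2 fold change -1.07, limma adjusted p = 0.030). Cldn1, Cldn4 and Cldn7 stood at 9.61 ± 3.07 (BM) and 7.93 ± 1.23 FPKM (R), at 429 ± 109.7 (BM) and 489 ± 49.5 FPKM (R) and at 157 ± 35.1 (BM) and 169 ± 17.6 FPKM (R), and none was called.

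Guidance genes had 7 of 45 members lower and 3 higher. Of these, 3 and 1 kept their call without each library, and the lower count ran from 3 (without R 2) to 12 (without BM 3). Ntn4, a laminin-related netrin, stood at 14.4, 15.4 and 12.1 FPKM in BM 1 to 3 and 3.99, 4.48 and 4.54 in R 1 to 3 (log2 fold change -1.58 ± 0.16, adjusted p = 0.00013). Sema3e, a secreted semaphorin, fell from 1.21 ± 0.448 (BM) to 0.0971 ± 0.0537 FPKM (R), and the receptor Robo2 fell from 1.55 ± 0.784 (BM) to 0.448 ± 0.165 FPKM (R), a call lost without BM 1, BM 2, R 1 or R 2 (adjusted p up to 0.11). Efna3, an ephrin ligand anchored in the membrane, rose from 2.79 ± 0.470 (BM) to 6.01 ± 0.749 FPKM (R). The guidance genes had a median length of 7119 bases, the longest of the lists outside the other cell types, and without BM 3 the count of lower members was 12.

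Genes of retinoid and aldehyde metabolism were called in both directions. Of 29 tested, 5 were called higher and 4 lower, and 6 were lower with the length trend removed. Stra6, the membrane receptor that takes up retinol from its carrier protein, stood at 67.3, 54.4 and 52.7 FPKM in BM 1 to 3 and 189, 189 and 206 in R 1 to 3 (log2 fold change 1.74 ± 0.14, adjusted p = 3.0e-05). Crabp2, a carrier that brings retinoic acid to its nuclear receptor, stood at 0.698, 0.909 and 2.43 FPKM in BM 1 to 3 and 8.10, 7.12 and 7.13 in R 1 to 3 (log2 fold change 2.22 ± 0.29, adjusted p = 0.00074). The level of Stra6 in R was above that in every BM library, and for Crabp2 BM 3 was the BM library nearest to R. Aldh1a1, a retinal dehydrogenase that makes retinoic acid, rose from 6.92 ± 1.37 (BM) to 15.6 ± 0.764 FPKM (R), and Fabp5, a fatty acid and retinoid carrier, rose from 8.02 ± 4.81 (BM) to 22.4 ± 7.43 FPKM (R), a call lost without BM 1, BM 2 or R 1 (adjusted p up to 0.074). Adh7, an alcohol dehydrogenase that oxidises retinol, fell from 27.7 ± 2.84 (BM) to 11.3 ± 1.20 FPKM (R) (log2 fold change -1.26 ± 0.13, adjusted p = 0.00016).

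The Stra6 window is shown as the case of a gene that rose and holds the core letters of the TCF/LEF motif, which few genes that rose did. It lies at chr9:58129099-58129398 on the plus strand of GRCm38.p6, with the match in capitals starting 145 bases before a start given in RefSeq. That start lies inside the gene as annotated in GENCODE M21 (chr9:58063788-58153996), not at its 5′ end.
Stra6: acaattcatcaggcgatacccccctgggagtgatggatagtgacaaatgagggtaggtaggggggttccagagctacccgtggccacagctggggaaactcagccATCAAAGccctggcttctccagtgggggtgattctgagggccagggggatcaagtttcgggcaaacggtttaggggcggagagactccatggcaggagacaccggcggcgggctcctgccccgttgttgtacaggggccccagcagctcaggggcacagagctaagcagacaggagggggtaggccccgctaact
By gene, the letters CTTTGAT or their reverse complement ATCAAAG were present in any window of 13 of 484 genes called higher (2.69%), 29 of 597 called lower (4.86%) and 351 of 11001 tested (3.19%). Counted by window instead, they were in 1225 of all 32851 (3.73%). They were in 2 of 17 Wnt target genes with a window. Of the 24 genes with the highest or lowest fold change, 13 had a window and 0 of these held the letters. The window reaches 250 bases before the start, so these counts say nothing of sites farther away. It was chosen after the values were seen.

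Of 61 enzymes of conjugation and redox metabolism, 9 were called higher and 9 lower. The higher count ran from 4 without R 1 to 14 without BM 3, and the lower count from 6 without R 1 or R 2 to 10 without BM 2. Only 4 and 6 of these calls held without each library, and with the length trend removed 12 were lower. Cyp4f39, which makes ω-hydroxylated lipids of the skin barrier, stood at 6.34, 5.91 and 5.07 FPKM in BM 1 to 3 and 25.7, 26.3 and 25.6 in R 1 to 3 (log2 fold change 2.08 ± 0.15, adjusted p = 1.1e-05). Cyp2b10, a P450 induced by foreign compounds, rose from 5.16 ± 0.233 (BM) to 15.9 ± 1.93 FPKM (R), and Cyp1a1, the standard target of the aryl hydrocarbon receptor, rose from 1.41 ± 0.141 (BM) to 3.63 ± 0.258 FPKM (R). The calls of Gsta1 and Gstm7, glutathione transferases with close paralogs, were in opposite directions. Gsta1 stood at 0.389 ± 0.310 (BM) and 1.36 ± 0.402 FPKM (R), and its call was lost without BM 2, R 1 or R 2 (adjusted p up to 0.12). Gstm7 stood at 3.14 ± 1.02 (BM) and 1.45 ± 0.331 FPKM (R), and its call was lost without BM 1, R 1, R 2 or R 3 (adjusted p up to 0.1). Abcc3, an exporter of conjugates that was named after its value was seen, fell from 32.7 ± 7.91 (BM) to 6.36 ± 1.70 FPKM (R). Srd5a2, a steroid 5α-reductase that makes DHT from testosterone, also named after its value was seen, stood at 0.900, 2.67 and 2.03 FPKM in BM 1 to 3 and 0.0734, 0.151 and 0.108 in R 1 to 3 (log2 fold change -1.88 ± 0.26, adjusted p = 0.0012).

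In eicosanoid metabolism, 5 of 26 genes were called lower and 2 higher. There were 4 higher both without BM 3 and with the length trend removed, and 3 of the 5 lower held without each library. Hpgd, the enzyme that inactivates prostaglandins, stood at 9.22, 8.59 and 9.61 FPKM in BM 1 to 3 and 2.23, 2.43 and 1.98 in R 1 to 3 (log2 fold change -1.83 ± 0.16, adjusted p = 3.8e-05). Ptgs2, the inducible cyclooxygenase that starts prostaglandin synthesis, stood at 69.4, 106 and 68.4 FPKM in BM 1 to 3 and 42.9, 42.4 and 49.4 in R 1 to 3 (log2 fold change -0.82 ± 0.22, adjusted p = 0.043). Both the synthetic and the degrading enzyme were thus lower, the call of Ptgs2 being lost without BM 1, BM 2, R 1, R 2 or R 3 (adjusted p up to 0.15). Pla2g7, which cleaves platelet-activating factor, fell from 42.9 ± 6.76 (BM) to 12.6 ± 1.32 FPKM (R). Pla2g2f, a secreted phospholipase of the epidermis, rose from at most 0.084 FPKM in BM to between 0.356 and 0.75 FPKM in R. Ptger1, a prostaglandin E2 receptor with 71.0% of its exonic length shared with another gene, fell from 6.92 ± 1.36 (BM) to 3.61 ± 0.542 FPKM (R), and this call was lost without BM 1, BM 2, R 1 or R 2 (adjusted p up to 0.12). Ffar4, a receptor for long-chain fatty acids named after its value was seen, fell from 29.0 ± 3.38 (BM) to 4.36 ± 0.793 FPKM (R).

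Cytokine and chemokine genes split. Of 39 tested, 9 were called higher and 7 lower. The higher count was 6 without R 1 and 11 without BM 3, and 6 and 5 of the calls held without each library. Besides Il33 and Tslp, the IL-36 family gene Il1f9 rose from 1.77 ± 0.461 (BM) to 10.3 ± 1.48 FPKM (R) (log2 fold change 2.26 ± 0.22, adjusted p = 0.00011), and Il18, an IL-1 family cytokine of epithelia, rose from 0.691 ± 0.340 (BM) to 2.10 ± 0.342 FPKM (R), a call lost without R 1 (adjusted p = 0.055). Cxcl10, an interferon-induced chemokine, rose from 2.35 ± 0.763 (BM) to 7.66 ± 1.27 FPKM (R). Its neighbours Cxcl9 and Cxcl11 were called higher at low levels, Cxcl9 from at most 0.0507 FPKM in BM to at least 0.214 FPKM in R and Cxcl11 from at most 0.0807 FPKM to at least 0.316 FPKM. The call of Cxcl9 was lost without BM 1, BM 2, R 1 or R 2 (adjusted p up to 0.11), and 41.7% of the exonic length of Cxcl11 is shared with another gene. Cxcl15, a chemokine of mucosal epithelia, fell from 36.4 ± 6.31 (BM) to 10.0 ± 1.38 FPKM (R) (log2 fold change -1.81 ± 0.17, adjusted p = 7.8e-05). The other members called lower were Cxcl17, Ccl2, Tnfsf10, Cxcl14, Il1rn and Cxcl12. Tnfsf4, the ligand of the T cell receptor OX40, was named after its values were seen and rose from at most 0.157 FPKM in BM to at least 1.83 FPKM in R.

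Antimicrobial and acute-phase genes had 8 of 24 members lower and 4 higher (median log2 fold change -0.44). With the length trend removed, 10 were lower and 4 higher. Pigr, the receptor that carries immunoglobulin A across epithelia, stood at 74.3, 59.5 and 36.0 FPKM in BM 1 to 3 and 12.5, 12.3 and 15.4 in R 1 to 3 (log2 fold change -1.99 ± 0.25, adjusted p = 0.00053). Hp, encoding haptoglobin, fell from 3.73 ± 1.02 (BM) to 0.934 ± 0.193 FPKM (R), and the membrane mucins Muc20 and Muc1 fell, Muc20 from 2.99 ± 0.492 (BM) to 0.803 ± 0.151 FPKM (R) and Muc1 from 1.61 ± 0.275 (BM) to 0.312 ± 0.0306 FPKM (R). Saa3, a serum amyloid A protein with close paralogs, rose from 0.121 ± 0.0662 (BM) to 1.94 ± 0.749 FPKM (R) (log2 fold change 1.93 ± 0.27, adjusted p = 0.0012). The complement genes C3 and Cfb, the copper carrier Cp and Clu were the other members called lower. Outside the list, Msln, encoding the surface protein mesothelin, fell from 152 ± 22.8 (BM) to 43.1 ± 1.899 FPKM (R). Of the genes that make hydrogen peroxide at epithelial surfaces, Duox1 rose from 1.68 ± 0.346 (BM) to 2.97 ± 0.264 FPKM (R), its maturation factor Duoxa1 rose from 6.02 ± 1.28 (BM) to 10.5 ± 0.810 FPKM (R) and Duoxa2 rose from 0.305 ± 0.0998 (BM) to 1.41 ± 0.112 FPKM (R). The call of Duox1 was lost without BM 1, R 1, R 2 or R 3 (adjusted p up to 0.14) and that of Duoxa1 without R 1 or R 2 (adjusted p up to 0.084), and Duoxa1 and Duoxa2 overlap.

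Antigen presentation on MHC class I differed little in calls. Only H2-Q10, a secreted class I molecule with close paralogs, was called among 27 genes, and it fell from 1.53 ± 0.172 (BM) to 0.0749 ± 0.0129 FPKM (R) (log2 fold change -1.82 ± 0.15, adjusted p = 2.8e-05). H2-K1 stood at 189, 170.4 and 209.9 FPKM in BM 1 to 3 and 230.0, 242 and 204 in R 1 to 3 (log2 fold change 0.25 ± 0.13, adjusted p = 0.26). B2m, the light chain of class I molecules, stood at 97.2, 75.9 and 227 FPKM in BM 1 to 3 and 162, 119 and 117 in R 1 to 3 (log2 fold change 0.14 ± 0.34, adjusted p = 0.83). The groups of B2m overlapped, with BM 3 the highest of the 6 libraries. Without BM 3, 4 members were called higher and 2 lower, and with the length trend removed 2 and 2.

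Among 42 genes of EGF receptor ligands and ERK feedback, 4 were called higher and 1 lower, and only Etv4 of the higher ones kept its call without each library. With the length trend removed, 2 were higher. Etv4, an ETS factor downstream of ERK, stood at 28.0, 20.1 and 23.6 FPKM in BM 1 to 3 and 39.9, 39.6 and 43.6 in R 1 to 3 (log2 fold change 0.78 ± 0.16, adjusted p = 0.011). Epgn, the EGF receptor ligand epigen, rose from 4.46 ± 1.22 (BM) to 8.45 ± 1.45 FPKM (R), a call lost without BM 1, R 1 or R 2 (adjusted p up to 0.1). Ier3, an early response gene, rose from 211 ± 68.8 (BM) to 365 ± 43.0 FPKM (R), a call lost without BM 1, BM 2, R 1 or R 2 (adjusted p up to 0.13). The zinc finger factor Egr2 fell from 2.83 ± 0.526 (BM) to 0.718 ± 0.0752 FPKM (R) (log2 fold change -1.44 ± 0.17, adjusted p = 0.00044). EGF was present in the medium of both groups.

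Of 22 genes of FGF and Hedgehog signalling, 6 were called lower and 0 higher (median log2 fold change -0.39), and without BM 3, 8 were lower and 2 higher. Ihh, the ligand Indian hedgehog, stood at 1.66, 1.13 and 1.32 FPKM in BM 1 to 3 and 0.0617, 0 and 0.0151 in R 1 to 3 (log2 fold change -1.82 ± 0.16, adjusted p = 4.7e-05). Ptch1, the Hedgehog receptor that is itself a Hedgehog target, stood at 1.46, 2.23 and 1.54 FPKM in BM 1 to 3 and 1.58, 1.14 and 1.85 in R 1 to 3 and was not called (log2 fold change -0.15 ± 0.28, adjusted p = 0.76). Gas1, a Hedgehog co-receptor, fell from 132 ± 20.1 (BM) to 75.1 ± 3.37 FPKM (R), a call lost without BM 1, R 1 or R 2 (adjusted p up to 0.064), with 19.9% of its exonic length shared with another gene. Fgf1 fell from 6.52 ± 1.33 (BM) to 2.27 ± 0.270 FPKM (R) and Fgf13, an intracellular relative of the FGF ligands, fell from 6.97 ± 0.557 (BM) to 2.25 ± 0.172 FPKM (R). Flrt2, a membrane protein that binds guidance receptors, fell from 1.89 ± 0.706 (BM) to 0.303 ± 0.158 FPKM (R).

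In the BMP, activin and TGF-β list, 5 of 48 genes were called lower and 3 higher, and none of the 3 kept its call without each library. The medium of both groups inhibits the TGF-β receptor and binds BMPs. Ltbp2, a microfibril protein of the latent TGF-β binding family, stood at 17.1, 12.8 and 9.93 FPKM in BM 1 to 3 and 1.61, 1.67 and 2.69 in R 1 to 3 (log2 fold change -2.46 ± 0.23, adjusted p = 7.2e-05). Ltbp1 fell from 13.8 ± 2.54 (BM) to 5.61 ± 1.34 FPKM (R), a call lost without R 2 (adjusted p = 0.0503). Fstl1, a secreted follistatin-like protein, fell from 5.38 ± 0.222 (BM) to 2.01 ± 0.261 FPKM (R), and Sostdc1, an antagonist of BMPs and Wnts, fell from 2.18 ± 0.687 (BM) to 0.685 ± 0.182 FPKM (R). Without BM 3 the list had 8 members lower and 6 higher, and with the length trend removed 7 lower and 1 higher.

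Further secreted ligands were named after their values were seen. Smoc2, a calcium-binding matricellular protein, stood at 15.6, 14.8 and 11.8 FPKM in BM 1 to 3 and 79.1, 85.6 and 81.3 in R 1 to 3 (log2 fold change 2.51 ± 0.15, adjusted p = 3.3e-06). Pthlh, the parathyroid hormone-related protein, stood at 4.46, 5.78 and 7.25 FPKM in BM 1 to 3 and 22.5, 24.9 and 20.3 in R 1 to 3 (log2 fold change 1.88 ± 0.21, adjusted p = 0.00023). Enpp2, the secreted enzyme autotaxin that makes lysophosphatidic acid, stood at 9.69, 9.35 and 9.53 FPKM in BM 1 to 3 and 28.4, 31.8 and 29.7 in R 1 to 3 (log2 fold change 1.60 ± 0.14, adjusted p = 3.5e-05). All R libraries of these 3 genes lay well above the highest BM library. Angpt1, the ligand of the endothelial receptor TIE2, fell from 5.83 ± 0.105 (BM) to 0.451 ± 0.0715 FPKM (R) (log2 fold change -2.74 ± 0.13, adjusted p = 8.7e-07). The platelet-derived growth factors Pdgfd and Pdgfc moved in opposite directions, Pdgfd from 7.63 ± 0.515 (BM) to 0.942 ± 0.0111 FPKM (R) and Pdgfc from 2.00 ± 0.170 (BM) to 5.76 ± 0.801 FPKM (R). Mrc1, a mannose receptor known from macrophages, fell from 2.79 ± 0.725 (BM) to 0.172 ± 0.0260 FPKM (R), and Ace, the angiotensin-converting enzyme, fell from 3.09 ± 0.979 (BM) to 0.626 ± 0.221 FPKM (R).

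Transport genes held many calls. Of 44 ion and water channels, 10 were called higher and 8 lower. The balance depended on the setting, with 10 higher and 14 lower without BM 3 and 8 higher and 12 lower with the length trend removed. Leaving out single libraries gave 5 to 10 higher and 6 to 14 lower, and 5 and 6 calls held without each. Aqp3, an aquaporin that carries water and glycerol in basal epithelial layers, stood at 27.0, 37.2 and 26.9 FPKM in BM 1 to 3 and 137, 151 and 141 in R 1 to 3 (log2 fold change 2.23 ± 0.15, adjusted p = 7.0e-06). Aqp5, an aquaporin of secretory epithelia, stood at 31.9, 23.2 and 34.7 FPKM in BM 1 to 3 and 9.43, 11.6 and 9.11 in R 1 to 3 (log2 fold change -1.52 ± 0.19, adjusted p = 0.00054). The aquaporins therefore moved apart, with no overlap of the groups for either. The connexins did too. Gjb6 rose from 0.832 ± 0.196 (BM) to 4.74 ± 0.960 FPKM (R), and Gjb1, which was named after its value was seen, fell from 3.81 ± 0.706 (BM) to 0.453 ± 0.156 FPKM (R). Gjb2 rose from 17.0 ± 1.95 (BM) to 25.0 ± 1.66 FPKM (R), a call lost without BM 2, R 1, R 2 or R 3 (adjusted p up to 0.14). Trpv6, an epithelial calcium channel, fell from 3.23 ± 0.327 (BM) to 0.382 ± 0.0192 FPKM (R) (log2 fold change -2.08 ± 0.14, adjusted p = 7.2e-06). Atp1b1, a β subunit of the sodium pump, fell from 76.7 ± 4.50 (BM) to 24.4 ± 3.63 FPKM (R) (log2 fold change -1.64 ± 0.13, adjusted p = 2.7e-05), whereas the subunit Atp1b3 rose. The sodium transport kinase Wnk4, named after its value was seen, fell from 8.47 ± 1.99 (BM) to 1.45 ± 0.431 FPKM (R).

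Of 55 solute carriers, 15 were called lower and 5 higher, and none of the 5 kept its call without each library, while 12 of the 15 did. With the length trend removed, 15 were lower and 7 higher, and without BM 3, 16 were lower and 3 higher. Slc44a4, a choline transporter-like protein, stood at 15.6, 11.8 and 12.9 FPKM in BM 1 to 3 and 2.80, 2.53 and 1.97 in R 1 to 3 (log2 fold change -2.25 ± 0.16, adjusted p = 1.2e-05). Slc45a3, the transporter known as prostein in the prostate, stood at 35.6, 30.8 and 24.6 FPKM in BM 1 to 3 and 9.09, 9.49 and 9.81 in R 1 to 3 (log2 fold change -1.62 ± 0.16, adjusted p = 0.00013). Slc39a8, a zinc and manganese importer, stood at 27.8, 53.9 and 23 FPKM in BM 1 to 3 and 8.56, 9.09 and 10.2 in R 1 to 3 (log2 fold change -1.76 ± 0.26, adjusted p = 0.0018). The zinc importers Slc39a4 and Slc39a8 thus both fell. Slc4a4, a sodium bicarbonate cotransporter, fell from 3.62 ± 0.894 (BM) to 0.454 ± 0.131 FPKM (R). The 5 called higher were Slc16a6, Slc16a3, Slco4a1, Slc2a9 and Slc5a1.

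Of 45 proteases and serpins, 11 were called higher and 5 lower, and 10 of the 11 kept their call without each library. With the length trend removed, 10 were higher and 9 lower. Tmprss11d, an airway trypsin-like protease anchored in the membrane, stood at 0.0550, 0.163 and 0.128 FPKM in BM 1 to 3 and 2.42, 2.69 and 2.41 in R 1 to 3 (log2 fold change 2.29 ± 0.13, adjusted p = 3.2e-06). Tmprss11b of the same gene cluster stood at 0.516, 0.665 and 0.538 FPKM in BM 1 to 3 and 4.42, 3.87 and 5.08 in R 1 to 3 (log2 fold change 2.20 ± 0.15, adjusted p = 9.8e-06). R libraries were above BM libraries for both, which were under 1 FPKM in BM. Cpa4, a carboxypeptidase, rose from 0.546 ± 0.141 (BM) to 3.46 ± 0.192 FPKM (R). Klk14, a kallikrein that was not on the squamous list although its neighbours were, had 0 reads in BM 1 and BM 3 and rose to between 0.937 and 1.59 FPKM in R, with 22.6% of its exonic length shared with another gene. Called lower were Hpn, Ctse, Prss23, Cpm and Ctsz.

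Among 32 genes of gasdermins and cell death, 4 were called lower and 0 higher, of which Gsdmc4 and its close neighbours made up 3, and without BM 3, 3 were higher and 4 lower. The Naip genes, which encode sensors of bacterial proteins and are close paralogs, were named after their values were seen. Naip5 fell from 10.9 ± 4.29 (BM) to 2.99 ± 0.608 FPKM (R) and Naip6 fell from 3.32 ± 1.12 (BM) to 0.924 ± 0.0464 FPKM (R), and Naip2 fell from 1.91 ± 0.649 (BM) to 0.671 ± 0.155 FPKM (R), a call lost without BM 1, R 1 or R 3 (adjusted p up to 0.059).

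Of 36 p53 targets and growth arrest genes, 5 were called higher and 1 lower. The higher count was 7 without BM 3 and 1 without BM 1 or any 1 R library, and 3 with the length trend removed. Cdkn1c, encoding the cell cycle inhibitor p57, stood at 38.2, 29.3 and 40 FPKM in BM 1 to 3 and 12.5, 14.7 and 11.6 in R 1 to 3 (log2 fold change -1.43 ± 0.17, adjusted p = 0.00047), with 30.7% of its exonic length shared with another gene. The inhibitor genes Cdkn1a and Cdkn1b were not called, at 36.0 ± 12.1 (BM) and 46.9 ± 6.89 FPKM (R) (adjusted p = 0.27) and at 2.59 ± 1.39 (BM) and 1.43 ± 0.377 FPKM (R) (adjusted p = 0.24). Without BM 3, Cdkn1a was called higher (limma adjusted p = 0.026) and Cdkn1b lower (adjusted p = 0.016). Ccnd2, encoding cyclin D2, rose from 22.2 ± 6.94 (BM) to 39.7 ± 0.289 FPKM (R), a call lost without BM 1, R 1, R 2 or R 3 (adjusted p up to 0.1). Ccnd3 stood at 17.8 ± 0.578 (BM) and 21.3 ± 1.33 FPKM (R) and was not called (adjusted p = 0.21). Ddit4, a stress-induced inhibitor of mTOR, rose from 129.7 ± 8.26 (BM) to 241 ± 25.4 FPKM (R), and the kinase Plk3 rose from 6.18 ± 0.787 (BM) to 9.75 ± 0.988 FPKM (R), a call lost without BM 1, R 1, R 2 or R 3 (adjusted p up to 0.13).

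Called genes also lay beside each other. Of the tested genes in genome order, 48 runs of at least 3 neighbours were called the same way, 20 higher and 28 lower, some of which overlap or are paralogs whose reads can be shared. Outside the keratin, kallikrein and Sprr clusters of the reference list, the higher runs included Cxcl9, Art3, Cxcl10 and Cxcl11 (chr5:92321347-92414628 on GRCm38), Duoxa2, Duoxa1 and Duox1 (chr2:122298900-122347972), Ndufa4l2, Shmt2 and Nxph4 (chr10:127514967-127534559), and the interferon-induced genes Ifit3, Ifit1bl1, Ifit3b and Ifit1 (chr19:34583531-34650009). The lower runs included the chloride channel regulators Clca3a2, Clca3b and Clca1 (chr3:144796559-145032776), the gasdermins from Gsdmc2 to Gsdmc4 (chr15:63824346-63912297) and Naip2, Naip5 and Naip6 (chr13:100144063-100317674). Clca3a2 fell from 50.9 ± 2.01 (BM) to 21.5 ± 0.364 FPKM (R), Clca3b fell from 5.21 ± 0.287 (BM) to 2.73 ± 0.113 FPKM (R) and Clca1 fell from 16.5 ± 2.22 (BM) to 9.17 ± 0.833 FPKM (R), the last call being lost without R 2 (adjusted p = 0.0503). No count of runs was made for shuffled calls.

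The levels in RD7 are given beside the others without a test, since RD7 and BM differ by both R-spondin1 and DHT and both groups would be set against the same R libraries. Stc1 stood at 0.463 ± 0.166, 9.71 ± 0.542 and 0.144 ± 0.125 FPKM in BM, R and RD7. Pou3f1 stood at 0.275 ± 0.118, 6.13 ± 0.713 and 0.201 ± 0.181 FPKM in BM, R and RD7. Tslp stood at 64.1 ± 18.9, 192 ± 17.7 and 1.81 ± 0.724 FPKM in BM, R and RD7. Each of these was highest in R, with RD7 at or below the level of BM. Dlx5 stood at 0.112 ± 0.0229, 1.902 ± 0.178 and 0.00823 ± 0.0143 FPKM in BM, R and RD7, Pthlh at 5.83 ± 1.39, 22.6 ± 2.32 and 1.10 ± 0.328 FPKM in BM, R and RD7 and Enpp2 at 9.52 ± 0.171, 29.9 ± 1.72 and 2.48 ± 0.386 FPKM in BM, R and RD7. Smoc2 was highest in R too, at 14.1 ± 1.99, 82.0 ± 3.31 and 15.4 ± 2.24 FPKM in BM, R and RD7. Other genes were lowest in R. Cyp2f2 stood at 196 ± 40.1, 27.4 ± 2.85 and 321 ± 30.8 FPKM in BM, R and RD7, B4galnt2 at 19.1 ± 7.14, 1.38 ± 0.0791 and 74.1 ± 10.4 FPKM in BM, R and RD7, Cxcl17 at 9.59 ± 4.91, 0.338 ± 0.156 and 17.2 ± 4.23 FPKM in BM, R and RD7 and Gne at 22.97 ± 5.05, 6.47 ± 0.209 and 62.0 ± 3.34 FPKM in BM, R and RD7. Psca, in contrast, stood at 29.2 ± 11.7, 249 ± 50.3 and 482 ± 151 FPKM in BM, R and RD7, and Ccn2 stood at 158 ± 18.3, 14.4 ± 0.880 and 27.2 ± 2.22 FPKM in BM, R and RD7. Ly6g6c stood at 0.767 ± 0.573, 10.8 ± 2.87 and 16.1 ± 2.07 FPKM in BM, R and RD7, and Ndufa4l2 at 7.17 ± 4.34, 41.3 ± 7.96 and 56.5 ± 11.3 FPKM. Osr1 stood at 9.54 ± 2.59, 0.307 ± 0.0495 and 0.0942 ± 0.0485 FPKM, and Gsdmc4 at 24.2 ± 3.75, 1.83 ± 0.122 and 0.17 ± 0.0253 FPKM. As with Psca and Ccn2, RD7 lay on the same side of BM as R. Genes of either kind were not counted.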

How the data were processed

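The deposited files give 1 FPKM value per gene and library, scaled by the authors to gene length and to the reads counted, per the file headers. Tools listed in the submitters' processing notes, without their roles, are edgeR 3.24.1, featureCounts, STAR 2.6.1a and CASAVA 1.9, with the build GRCm38, while annotation release, strand setting and filters are not given in the sources used here. Polyadenylated RNA was amplified with a SMART-Seq kit, per the labels' protocols, without strand or molecular identifiers. Whole reads were read back from FPKM with the exon lengths of GENCODE M21 for 23034 of the 26813 genes above 0 (within 0.02 of a read), with a length fitted for 3777, recovering at least 99.979% of each library. A gene with 0 reads could stand at up to 0.461 CPM in BM 1 and 0.188 in the others (3 reads, counting error only).

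Genes reaching 0.5 CPM in 3 or more libraries entered the test on log2(FPKM + 0.5) with limma 3.58.1 (R 4.3.3; empirical Bayes with trend and robust settings, 1 mean per group over 9 libraries, 6 residual degrees of freedom, two-sided, Benjamini-Hochberg over all genes tested). On simulated data from the same libraries it found 41% of 2-fold and 85% of 4-fold changes over 15931 genes, with 3.08% of calls false. These values describe the simulation only. In the measured libraries BM 3 stood apart and differences were correlated with gene length, and the share of false calls there was not tested. Python 3.11.15, pandas 2.3.3, numpy 2.4.6 and matplotlib 3.10.9 made tables and plots. Genes and lists were chosen with earlier results of these data known. Named were the 12 highest and 12 lowest fold changes and the 8 largest rises and falls in FPKM, among protein-coding genes outside the reference lists with at least 2 FPKM, no overlap of groups and a call without each library; up to 4 called members per list; and check genes. Other genes, both promoter windows and the TEAD motif were chosen after their values were seen. A few of these genes are not reported here. RefSeq promoter windows were found for 145 of the 192 genes picked for naming and for 11001 genes tested.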

Additional observations from a re-analysis of the deposited data

How the results depend on the processing

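Besides the values given above, 15 other settings were run. Higher and lower calls numbered 668 and 881 at a pseudocount of 0.1, 699 and 886 at a pseudocount of 1, 520 and 726 without the filter, 573 and 684 with a filter at 1 FPKM, 617 and 933 with median-of-ratios scaling, 624 and 925 with limma-voom on reads, 633 and 1029 with the length trend removed, and 538 and 790 with the 6 libraries alone. With each BM or R library left out, the counts ranged from 368 to 2083 higher and from 555 to 1310 lower. Removing the length trend brought the rank correlation of fold change and length from -0.33 to 0.02. Of the 177 called genes picked for naming, 144 stayed called in every setting and 150 without each library. For those picked by fold change or difference in FPKM, a call without each library was a condition of the choice. Of all calls, 275 of 694 higher and 403 of 896 lower stayed called in every setting, and 327 and 498 without each library.

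Deviations of same-numbered BM and R libraries had correlations of -0.32, 0.07 and -0.52, so the numbers gave no sign of pairing. With 3 libraries per group, such correlations cannot settle whether libraries share an origin. With the number as a replicate block, 461 genes were higher and 696 lower.

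Among the 192 genes picked for naming, signs reversed in genes that were not called. With the length trend removed, the log2 fold change was -0.076 for Krt14, 0.021 for Ptch1, -0.070 for Cldn7 and -0.061 for B2m. Leaving out single libraries gave ranges across 0, from -0.044 to 0.31 for Trp63, -0.14 to 0.10 for Krt18, -0.37 to 0.0044 for Cldn1, -0.26 to 0.00070 for Ptch1, -0.18 to 0.60 for B2m and -0.011 to 0.36 for Cldn4. The cause was not tested. Removing the length trend ended the calls of Epgn, Plk3, Snai2, Cspg4, Krt7, Gjb2 and Cxcl9. Depth limits genes near 0.5 FPKM most in BM 1.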
